A study of Mus musculus with 10 samples.

Results

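Transcripts of 10 genes of matricellular proteins, periostin foremost (Postn, Tgfbi, Sparc, Spp1, Thbs1, Thbs2, Thbs4, Tnc, Fn1 and Vcan) were looked up among 12422 probe sets of a mouse array, controls left out. A probe set counted when the platform annotation gave it 1 gene. That held for 9 probe sets of 7 genes, out of 8251 genes named in all, with 2 probe sets each for Tgfbi and Tnc. Spp1, Thbs1 and Thbs4 are not analysed here. The genes were chosen by name with the differences between mdx and control intensities on these arrays already known. Those differences are therefore given as a description. No p-value of a member is printed, and nothing is read from whether the fit across all probe sets called it.

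Matricellular proteins are secreted into the matrix between cells, where they steer cell behaviour and matrix assembly more than they bear load. They bind collagens and growth factors on one side and cell surface receptors, above all integrins, on the other, and they are known for low levels in resting adult tissue and high levels where tissue is repaired. In muscle with ongoing degeneration they mark the interstitial matrix that surrounds new and dying fibres.

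The arrays measured total RNA of gastrocnemius, the large calf muscle, from male mice of 16 weeks. There were 5 arrays of mdx mice, whose dystrophin gene carries a mutation that ends translation early, and 5 of normal mice, called control here. The labels name neither the strain of the normal mice nor any treatment. They do not say that arrays of one group came from separate animals, so the spread behind each p-value is that of these samples and may be technical. Mature fibre markers were bright in both groups, with summed intensities of 137017 to 214177 in mdx and 171910 to 294994 in control over 7 genes. Dmd, the dystrophin gene, had an intensity of 188 ± 33.7 in mdx and 797 ± 147 in control (SD, n = 5 each), and was at least 2.11-fold lower in mdx (adjusted p = 6.54e-06 in limma). All 5 mdx values lay below the noise level of 373, the root mean square of the intensities below 0.

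Some properties of the arrays moved with the groups. Between 19.7% and 22.5% of the intensities of an mdx array lay below 0, against 22.8% to 23.8% of a control array. The 3' to 5' ratio of actin, a measure of RNA integrity, was 0.952 to 1.08 in mdx and 1.07 to 1.16 in control, and that of Gapdh 0.690 to 0.792 in mdx and 0.672 to 0.823 in control. The spiked hybridization controls, at a geometric mean of 6414 to 8405 in mdx and 10209 to 13315 in control, did not overlap between the groups. The trimmed mean of mdx replicate 1 was 723, against 801 on each other array. The part of these properties in the results was not tested. Precision is limited by there being 5 arrays a group.

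The promoters of 5 measured members are shown first, because their changes differed in size. In mdx muscle these changes ranged from the second largest rise of all tested genes (Postn) to a difference within the spread (Thbs2). Each window runs from 250 bases before to 50 after an annotated start, on the strand of the gene, as RefSeq gives it for GRCm38.p6. Capitals mark the TATA box (TATAAA) and the SMAD box (CAGAC), the short motif bound by the transcription factors of TGF-beta signalling. Both strands were searched, so a match on the other strand reads TTTATA or GTCTG. No marked matches overlapped. The windows are those of Postn at chr3:54360857-54361156 (+), Sparc at chr11:55420031-55420330 (-), Tgfbi at chr13:56609336-56609635 (+), Tnc at chr4:64046887-64047186 (-) and Thbs2 at chr17:14694213-14694512 (-).
Postn: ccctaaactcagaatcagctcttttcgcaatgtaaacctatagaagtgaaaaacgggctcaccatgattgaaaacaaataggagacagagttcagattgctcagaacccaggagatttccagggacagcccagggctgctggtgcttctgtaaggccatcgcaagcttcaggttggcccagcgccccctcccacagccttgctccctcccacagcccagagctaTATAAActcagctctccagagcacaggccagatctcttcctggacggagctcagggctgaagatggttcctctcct
Sparc: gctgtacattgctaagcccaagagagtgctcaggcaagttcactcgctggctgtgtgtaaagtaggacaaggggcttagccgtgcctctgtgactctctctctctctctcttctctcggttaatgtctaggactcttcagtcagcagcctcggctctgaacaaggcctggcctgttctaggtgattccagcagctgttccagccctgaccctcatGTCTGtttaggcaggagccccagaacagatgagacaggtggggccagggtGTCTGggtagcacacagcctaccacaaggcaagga
Tgfbi: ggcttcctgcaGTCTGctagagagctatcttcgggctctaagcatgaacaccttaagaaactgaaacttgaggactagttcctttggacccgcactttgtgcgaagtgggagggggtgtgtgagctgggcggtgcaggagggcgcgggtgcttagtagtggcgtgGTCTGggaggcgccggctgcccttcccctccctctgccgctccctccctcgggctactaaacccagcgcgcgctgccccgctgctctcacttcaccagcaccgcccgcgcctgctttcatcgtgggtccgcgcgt
Tnc: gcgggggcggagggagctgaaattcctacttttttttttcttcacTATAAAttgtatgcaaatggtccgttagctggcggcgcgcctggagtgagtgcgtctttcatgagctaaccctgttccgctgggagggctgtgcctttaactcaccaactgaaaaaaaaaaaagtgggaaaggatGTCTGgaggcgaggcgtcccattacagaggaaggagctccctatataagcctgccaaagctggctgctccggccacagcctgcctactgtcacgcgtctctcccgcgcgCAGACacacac
Thbs2: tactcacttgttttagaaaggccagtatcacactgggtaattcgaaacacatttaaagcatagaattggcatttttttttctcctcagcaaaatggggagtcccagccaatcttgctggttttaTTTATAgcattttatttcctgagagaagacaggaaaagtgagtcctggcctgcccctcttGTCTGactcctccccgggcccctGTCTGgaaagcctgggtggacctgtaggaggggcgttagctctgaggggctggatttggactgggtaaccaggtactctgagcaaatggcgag

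The windows differed in make-up. The TATAAA of the Postn window began at base -26 from the start, the place where a TATA box commonly lies, while the matches of Tnc and Thbs2 began at -205 and -126. Only the exact string TATAAA was searched. The printed Tnc window also holds an unmarked variant, tatataag, much nearer to its start, so these positions do not show that Tnc lacks a TATA box there. A TATAAA match was found in 13.6% of all 32851 promoter windows of that length. The Sparc, Tgfbi, Tnc and Thbs2 windows each held 2 SMAD boxes and the Postn window 0. At least 1 was found in 49.6% of all windows, and the share with 2 or more was not counted. A second annotated Postn start, at chr3:54359017-54359316 (+), had no TATAAA and 1 SMAD box. A second Tnc window, at chr4:64046966-64047265 (-), overlaps the printed one. Its TATAAA, at -126 from that start, and its 1 SMAD box are sites already marked in the printed window. The Tgfbi window was GC-rich, with 63.3% G or C and 22 CpG, beside 53.0% and 5 CpG for Postn, 55.3% and 4 for Sparc, 54.0% and 16 for Tnc, 48.3% and 4 for Thbs2 and medians of 52.7% and 7 over all windows. Neither the AP-1 motif TGANTCA (in 7.81% of all windows) nor the CArG box of serum response factor (1.63%) was found in any of these windows. A match is a string of letters, and no binding was measured.

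Of the 9 probe sets, 7 were bright enough to be tested, with an intensity above 134 on at least 5 of the 10 arrays. All 7 cleared that limit on at least 4 control arrays. In the limma fit across 7612 probe sets, 6 of the 7 were called higher and 0 lower at an adjusted p below 0.05, where 15.8% of all probe sets were called higher and 17.8% lower. Every mdx array lay above every control array for the same 6, as for 12.3% of all tested probe sets. The median log2 change was 1.10 over the 7 member probe sets and -0.03 over all. Of the 7, 5 had a log2 change of at least 1, as had 3.64% of all probe sets. Since the members were chosen on this contrast, nothing is read from these counts. Levels refer to whole muscle, where more cells of a type and more RNA per cell cannot be told apart.

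**Figure D1:**
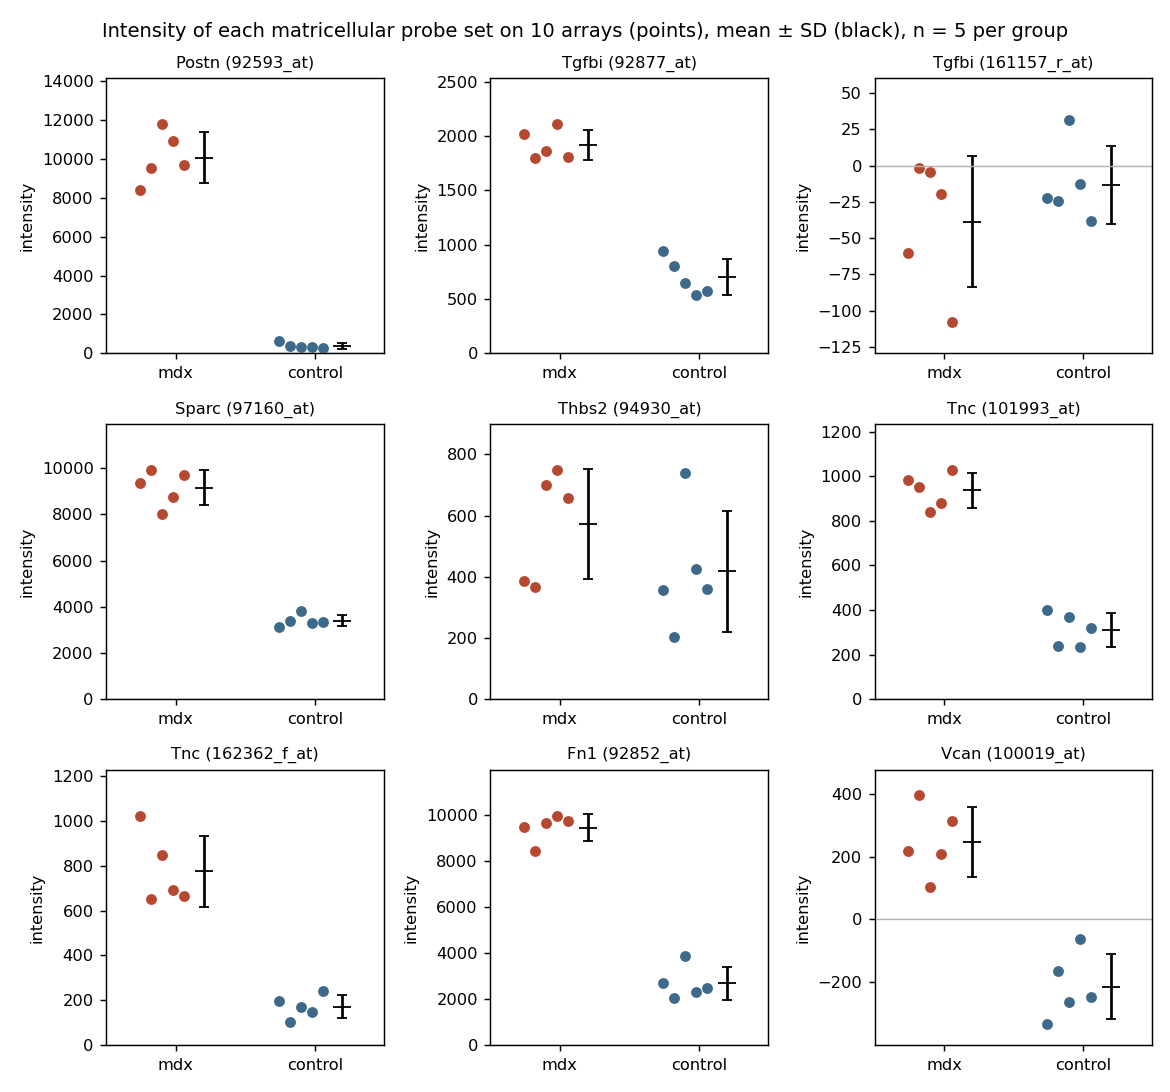
Intensity (linear scale, y axis) of each of the 9 matricellular probe sets on every array, with 5 mdx arrays left and 5 control arrays right in each panel, and the mean ± SD in black. The groups lie apart for Postn, Sparc, Fn1, both Tnc probe sets, the brighter Tgfbi probe set and the dim Vcan probe set, and overlap for Thbs2 and the Tgfbi probe set near 0.

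Periostin and TGFBI are close relatives built of fasciclin domains, which bind collagen and integrins and are made by fibroblasts on exposure to TGF-beta. Postn, encoding periostin, had intensities of 8413, 9526, 11776, 10909 and 9691 on mdx arrays 1 to 5, against 616, 368, 319, 302 and 281 on control arrays 1 to 5. The lowest mdx array stood 13.7 times above the highest control array. The group means were 10063 ± 1304 in mdx and 377 ± 137 in control (SD, n = 5 each), a ratio of 26.7 between the means. Of the control arrays, 4 lay below the noise level of 373 used as the pseudocount, which makes that ratio less certain than those of brighter genes. The log2 change, taken as log2(intensity + 373) in mdx minus control, was 3.81 (SE 0.12), the largest of the 7 tested member probe sets. On this scale the rise of Postn ranked 2 among 5767 tested genes. Control replicate 1 stood apart from the other control arrays, and the log2 change stayed between 3.75 and 3.91 when any single array was left out.

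Tgfbi, encoding the TGF-beta-induced relative of periostin, had intensities of 2019, 1794, 1861, 2108 and 1804 in mdx, against 937, 806, 648, 540 and 573 in control. The mdx arrays were close together, with a coefficient of variation of 7.27% in mdx and 23.9% in control. The log2 change was 1.10 (SE 0.11), with a ratio of means of 2.74. The other Tgfbi probe set gave -108 to -1.83 in mdx and -38.5 to 31.4 in control. All 10 of its values lay below the noise level, so it gives only a bound in both groups and no fold.

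Sparc and Fn1 are the members that connect most directly to collagen fibrils and to the first matrix laid down in a wound. Sparc, a collagen-binding glycoprotein that aids collagen processing, had intensities of 9340, 9916, 8023, 8766 and 9680 in mdx, against 3142, 3363, 3793, 3291 and 3357 in control. Both groups were tight, with coefficients of variation of 8.33% in mdx and 7.16% in control. The log2 change was 1.34 (SE 0.08) and the ratio of means 2.70. Fn1, encoding fibronectin, the adhesive glycoprotein on which other matrix proteins assemble, gave 9487, 8447, 9664, 9978 and 9735 in mdx, against 2691, 2030, 3889, 2299 and 2474 in control. The mdx arrays varied by 6.28% and the control arrays by 26.9%, with control replicate 3 the highest. The log2 change of 1.72 (SE 0.13) was the next largest of the members after Postn, with a ratio of means of 3.54.

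Tenascin C and thrombospondin 2 are multimeric proteins that loosen cell adhesion. Tnc, known from injured tendon and muscle and nearly absent from resting adult muscle, was measured by 2 probe sets. The brighter gave 985, 951, 839, 881 and 1028 in mdx, against 398, 238, 369, 232 and 319 in control, with a log2 change of 0.94 (SE 0.10). The other gave 1023, 650, 846, 694 and 663 in mdx, against 195, 104, 168, 148 and 242 in control. All 5 control values of the second lay below the noise level, so that its intensity was at least 2.04-fold higher in mdx, with a fitted log2 change of 1.07 (SE 0.11). The probe sets pointed the same way, and their changes differed by about the size of their SEs.

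Thbs2, encoding a thrombospondin that inhibits vessel growth and binds matrix proteases, was the tested member with the smallest log2 change. It had intensities of 387, 368, 698, 749 and 659 in mdx, against 356, 204, 739, 426 and 361 in control. The mdx arrays fell into 2 low and 3 high values, and control replicate 3 reached the level of the high ones, so the groups overlapped. The log2 change was 0.27 (SE 0.18), a ratio of means of 1.37. The coefficient of variation was 31.6% in mdx and 47.4% in control, the widest in both groups among the tested members. Scaled to the hybridization controls, the change of Thbs2 was 0.61, but that scaling shifted the median of all probe sets upward by 0.36.

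Vcan, encoding the large hyaluronan-binding proteoglycan versican of provisional matrix, was too dim to be tested. Its intensities were 217, 396, 102, 208 and 314 in mdx, against -333, -163, -264, -62.5 and -247 in control. Every mdx value was above 0 and every control value below 0, and 9 of the 10 lay below the noise level. The groups did not overlap, but with neither group measured above noise no fold is given. Without the filter its fitted log2 change was 0.71 (SE 0.11), a value set largely by the pseudocount.

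**Figure D2:**
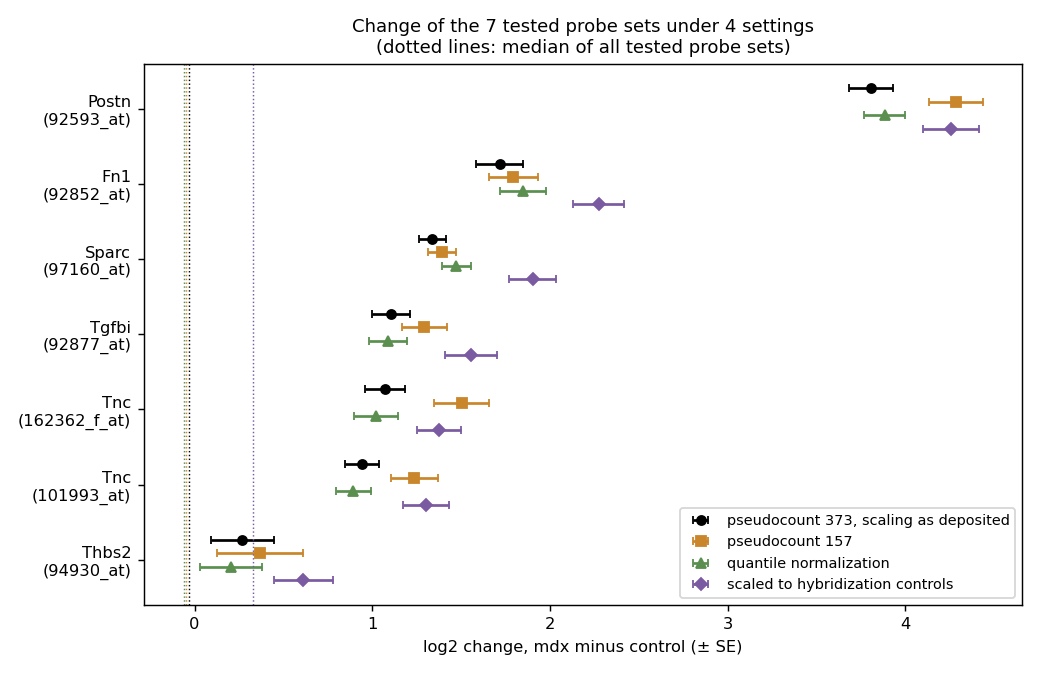
Log2 change of the 7 tested probe sets, mdx minus control, with the SE as bars (x axis), under the scaling as deposited with pseudocounts of 373 and 157, under quantile normalization and scaled to the hybridization controls. Postn lies between 3.81 and 4.28 in these 4 settings and Thbs2 between 0.21 and 0.61, and the dotted medians of all probe sets lie near 0 except for the last setting, at 0.33.

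In order of log2 change the members ran Postn (3.81), Fn1 (1.72), Sparc (1.34), Tgfbi (1.10), Tnc (1.07 and 0.94) and Thbs2 (0.27). The steps from Postn to Fn1 and from Tnc to Thbs2 were wider than the SEs, while Tgfbi and both Tnc probe sets lay within 2 SEs of each other. The order of the middle genes depended on the pseudocount, because a large one shrinks the change of dim genes more. At a pseudocount of 157, estimated from the median of the intensities below 0, the dimmer Tnc probe set stood at 1.50, above Sparc at 1.39 and Tgfbi at 1.29. Under this pseudocount Postn reached 4.28, Fn1 1.79, the brighter Tnc probe set 1.24 and Thbs2 0.37.

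The members did not share one order of arrays within a group. In mdx, replicate 3 had the highest Postn (11776) and the lowest Sparc (8023) and lowest brighter Tnc (839). Replicate 2 had the highest Sparc (9916) and the lowest Tgfbi (1794), Thbs2 (368) and Fn1 (8447). In control, replicate 1 was highest for Postn, Tgfbi and the brighter Tnc probe set, and replicate 3 for Sparc, Thbs2 and Fn1. For 6 of the 7 tested probe sets the coefficient of variation was larger in control than in mdx, with Sparc as the exception. On the log2 scale the SD of the dimmer Tnc probe set was also larger in mdx, at 0.19 in mdx and 0.14 in control, where all its values were below noise. The averaged deviation of the 7 from their group mean (log2 scale) ran from -0.09 (replicate 2) to 0.05 (replicate 4) among mdx arrays, and from -0.13 (replicate 2) to 0.16 (replicate 3) among control arrays.

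The 5 genes nearest to Postn in pattern included 4 known from leukocytes and none of the members. Likeness was the root mean square difference between 2 genes over the 10 arrays, in log2 units, after each was centred on its own mean, for 5766 genes. Ctss, a lysosomal protease of antigen-presenting cells, lay nearest at 0.115, with intensities of 13443 ± 1532 in mdx and 749 ± 185 in control. It was followed by the macrophage lysozyme Lyz2 at 0.256, which has a near-identical relative, the complement chain C1qb at 0.307, the myosin light chain Myl4 of embryonic and atrial muscle at 0.324 and the class II chain H2-Aa at 0.328. Of the members, Fn1 was nearest to Postn, at 1.08 and place 61, and Thbs2 farthest, at 1.80 and place 1206. This measure favours genes with a group difference of the same size, and the genes are not independent.

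**Figure D3:**
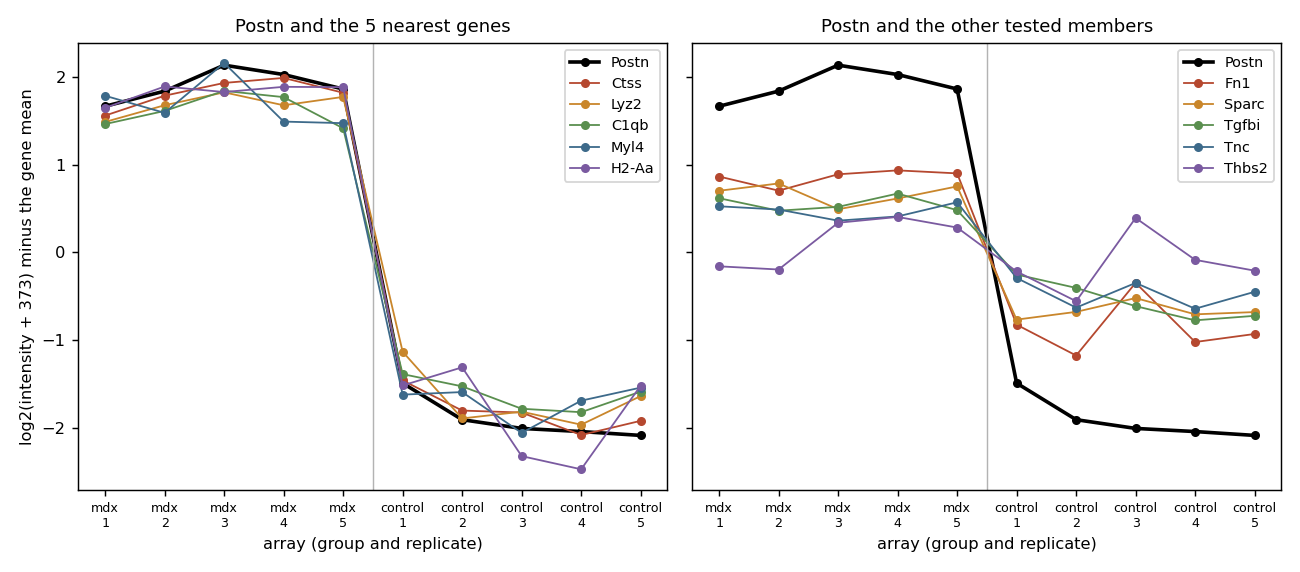
Log2(intensity + 373) of each gene minus its own mean over the 10 arrays (y axis), for mdx arrays left and control arrays right of the grey line. The left panel shows Postn with the 5 genes nearest to it, which track it at distances of 0.115 to 0.328, and the right panel Postn with the other tested members, which lie between at 1.08 (Fn1) and 1.80 (Thbs2).

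Markers of some cell types that could carry these transcripts moved with the groups, up or down, and those of others overlapped. The counts below stand beside 16.1% of all tested genes called higher and 18.6% called lower. Intensities of 10 fibroblast markers summed to 75154 to 88954 in mdx and 44874 to 55087 in control, with 7 called higher. Among them, 2 were called lower, Pdgfra and Dcn. Those of 9 macrophage markers summed to 46420 to 62212 in mdx and 3070 to 6032 in control, with 9 of 9 called higher, while Adgre1, Lgals3 and Tyrobp did not reach noise on any control array. Those of 7 markers of regenerating fibres summed to 18478 to 28483 in mdx and 4315 to 4919 in control, with 5 called higher and Myh3 below noise in control. Smooth muscle and pericyte markers summed to 8683 to 10857 in mdx and 6448 to 6860 in control over 6 genes, with 1 higher and 1 lower and Pdgfrb below noise on every array. The 1 higher was Acta2, at 5710 ± 727 in mdx and 2232 ± 372 in control, which made up much of that sum. The 1 lower was Myh11, at 375 in mdx and 631 in control, while Tagln, Cnn1, Rgs5 and Pdgfrb gave no call. Endothelial markers summed to 4252 to 5385 in mdx and 5890 to 7178 in control over 7 genes, with 0 higher and 2 lower and Pecam1 below noise on every mdx array. The sums of tendon markers (3 of 7 measured), mature fibres, Schwann cells and adipocytes overlapped between the groups, at 5072 to 8077 in mdx and 7198 to 11508 in control for tendon. Of 7 mature fibre genes, 4 were called lower and 0 higher, with log2 changes of -0.56 to -0.42 over all 7. Of the Schwann cell genes Mbp was called lower, and of the adipocyte genes Adipoq higher. The tendon markers Scx, Fmod and Chad gave no call, and Tnmd, Comp, Mkx and Prelp had no probe set of 1 gene. The fibroblast markers Col1a1, Col1a2, Col3a1, Lum and Dcn are counted again among the matrix partners below, and Fbln1 among the other matricellular genes. Those counts are therefore not separate from the fibroblast count. The part of any of these cell types in the matricellular changes was not tested.

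The genes around the members were described by lists of other matricellular genes, receptors, matrix partners, the TGF-beta axis and proteases, with 1 probe set a gene, the brightest. Over all 5767 genes tested, 16.1% were called higher and 18.6% lower, with a median log2 change of -0.04. The lists were drawn up with earlier results of these data known. The calls are from limma with Benjamini-Hochberg adjustment over the whole array.

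Of 16 tested genes of other matricellular proteins, 5 rose, 0 fell and 11 did not pass, with a median log2 change of 0.20. Fstl1, a secreted relative of Sparc, had 2596 ± 244 in mdx and 806 ± 78.1 in control (SD, n = 5 each), a log2 change of 1.33 (SE 0.08, adjusted p = 1.56e-07). Mgp, matrix Gla protein, an inhibitor of calcification, rose by 1.57 (adjusted p = 2.73e-05), and the fibulin Fbln2 by 0.68 (adjusted p = 2.33e-05). Thbs3, a pentameric thrombospondin, had 392 ± 147 in mdx and 18.1 ± 97.7 in control, with 2 mdx and all 5 control arrays below noise. It was called (adjusted p = 0.000623), but no fold is given, since its fitted log2 change ran from 0.29 to 1.90 with the pseudocount. Ccn2, the connective tissue growth factor and a common readout of TGF-beta signalling, had 885 ± 138 in mdx and 878 ± 315 in control, a log2 change of 0.04 (adjusted p = 0.885). Scaling to the hybridization controls raised the 5 calls to 11, Ccn2 among them at 0.46, against the shift of 0.36.

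Among 11 tested receptor genes 4 rose, 1 fell and 6 did not pass, with a median of 0.26. Stab1, a scavenger receptor of macrophages and endothelium that takes up Sparc, had 1621 ± 119 in mdx and 378 ± 82.2 in control, a log2 change of 1.41 (SE 0.09, adjusted p = 2.56e-07). Cd47, a receptor for thrombospondins, rose by 0.63 (adjusted p = 4.95e-05), and its other probe set by 0.49 (adjusted p = 0.0024). Itga7, a laminin receptor chain of muscle, rose by 0.55 (adjusted p = 0.00106), though its other probe set did not pass, at 0.10. The integrin-linked kinase Ilk rose by 0.50 (adjusted p = 0.00314). The tested integrin chains that bind periostin and fibronectin did not pass. Itgav stood at 0.13 (adjusted p = 0.272), Itgb1 at 0.08 (adjusted p = 0.375) and Itgb5 at 0.26 (adjusted p = 0.556). Their other probe sets gave no call either, at 0.15, 0.17 and -0.23. Itga4, Itga5 and Itga8, also on the list, were not tested. Itgb1 was called at 0.31 after quantile normalization, and Itgav and Itgb1 at 0.66 and 0.67 when scaled to the hybridization controls, against the shift of 0.36. Cd36, a thrombospondin receptor and fatty acid transporter, fell by 0.43 (adjusted p = 0.0224), a call lost in 7 of 20 alternatives, 5 of which left out 1 array each (mdx replicates 1, 3 and 4 and control replicates 3 and 5). No probe set of Cd44 or Itgb3 was bright enough to be tested.

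Of 21 collagen and matrix partner genes, 18 rose, 2 fell and 1 did not pass, with a median of 0.98. Col5a2, a chain that sets fibril diameter, had 5311 ± 508 in mdx and 996 ± 37.9 in control, a log2 change of 2.05 (SE 0.08, adjusted p = 2.78e-09). The collagen VI chains Col6a3 and Col6a2 rose by 1.90 and 1.42 and the collagen-binding proteoglycan Lum by 1.63. Col1a1, the main fibrillar collagen chain and a binding partner of Sparc, rose by 1.43 (adjusted p = 7.67e-07), while its dimmer probe set stood at 0.36 (adjusted p = 0.0512). Col1a2 and Bgn, named after their values were seen, rose by 1.79 and 1.74, but their other probe sets gave no call, at -0.06 and 0.24. The other tested probe sets of Col3a1, Col5a1, Col6a1, Bmp1, Lox and Eln were called higher. The 2 calls of a fall were Dcn, at -0.34, and Col12a1, both named after their values were seen. Col12a1 lay below the noise level on all 5 mdx and 4 control arrays, so no fold is given, and its other probe set gave no call. The count of 2 dropped to between 0 and 1 without mdx replicate 1, 2, 3 or 4 or control replicate 1, 2, 3 or 4.

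Of 14 tested genes of the TGF-beta axis 1 rose, 2 fell and 11 did not pass, with a median of 0.05. Tgif1, a repressor of SMAD-driven transcription, was at least 1.49-fold higher, with 556 ± 41.4 in mdx and a control level below noise (adjusted p = 0.0009). Mstn, myostatin, had 744 ± 164 in mdx and 3244 ± 352 in control, a log2 change of -1.70 (SE 0.11, adjusted p = 1.82e-07). Bmp4 fell by 0.59 (adjusted p = 0.00639), with its other probe set at -0.11 and no call, and stood at -0.09 with no call when scaled to the hybridization controls. Tgfb1 itself was too dim to be tested, with all 10 values below 134, so its level is not known here. Leaving out mdx replicate 1, 4 or 5 moved the 1 rise to 2.

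Of 9 tested proteases and inhibitors 6 rose, 2 fell and 1 did not pass, with a median of 0.46. One of the 6, the collagenase Mmp13, lay below noise on all 10 arrays. Another, the inhibitor Timp2, named after its value was seen, passed narrowly at 0.46 (adjusted p = 0.0486), with groups that overlapped. The count was 5 when any single array other than mdx replicate 1 was left out. Mmp12, the macrophage elastase, was at least 5.42-fold higher, with 2052 ± 381 in mdx and a control level below noise on all 5 arrays (adjusted p = 2.21e-08). Its other probe set was at least 5.01-fold higher. Mmp3, stromelysin, which cleaves fibronectin and tenascin, was at least 2.86-fold higher (adjusted p = 2.03e-06). The inhibitor Timp1 rose by 1.85 (adjusted p = 3.24e-06). Timp3, the inhibitor that stays bound to matrix, fell by 1.15 (adjusted p = 4.14e-05), with 2543 ± 431 in mdx and 6119 ± 1214 in control. The other fall was Plau, encoding urokinase, named after its value was seen. It lay below noise on all 5 mdx arrays and was at least 1.19-fold lower in mdx, with 1 control array also below noise. The count of 2 falls became 1 without mdx replicate 1 or 4 or control replicate 2, 3 or 5.

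**Figure D4:**
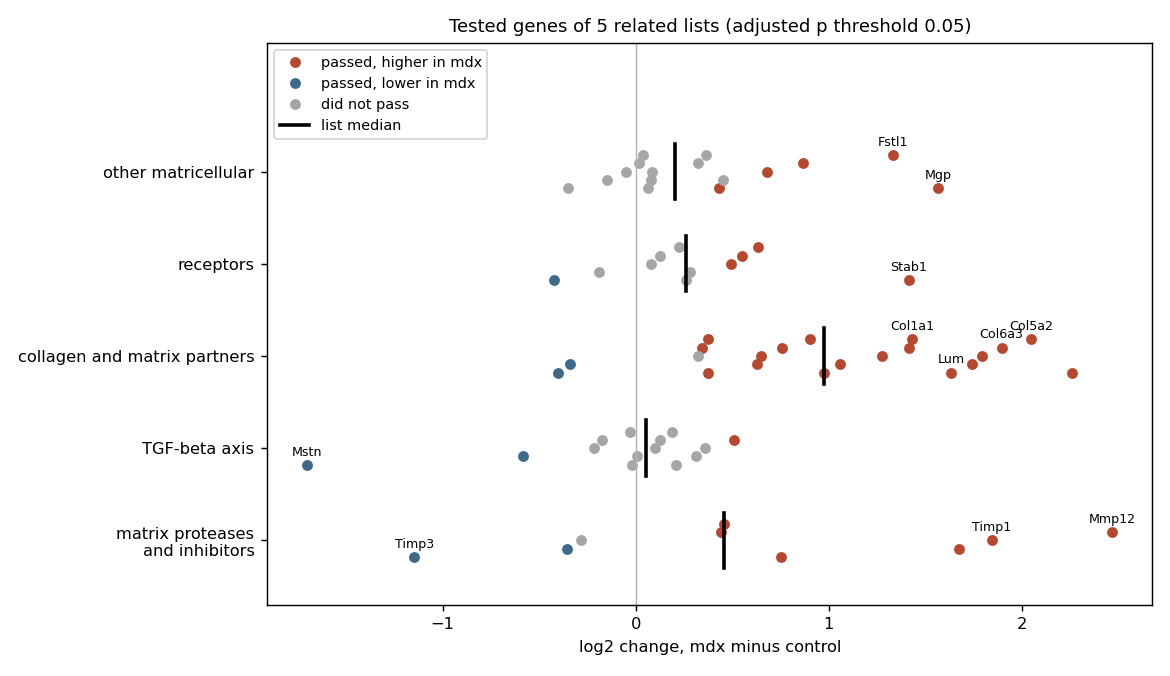
Log2 change of every tested gene of the 5 lists (x axis, mdx minus control), in red where called higher in mdx, in blue where called lower and in grey where not passing, with the list median as a black bar. The collagen and matrix partners lie mostly to the right, with a median of 0.98, and the TGF-beta axis around 0, with a median of 0.05 and Mstn far left at -1.70.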

How the data were processed

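The deposited values were linear intensities, 1 for each probe set and array, of which 19.7% to 23.8% per array were below 0. How the authors made them is not given in the sources used here, and their scaling was kept. Their trimmed mean (2% off each end) was 800.7 to 800.9 on 9 arrays and 723 on mdx replicate 1. Names came from the platform annotation (10833 probe sets with 1 gene, 396 with several, 1193 with none), and RefSeq of GRCm38.p6 changed 0 symbols. After raising negative intensities to 0, log2(intensity + 373) was used. The 373 is the root mean square of all 27483 negative intensities and is called the noise level. Far-negative values raise it, and an estimate from their median, 157, was added after seeing the data. Fold changes on this scale understate those of dim genes. If a group was below 373 on every array, the other group's geometric mean over 373 is printed as a lower bound, or no fold where that is under 1 or most of that group lay below 373. Probe sets above 134 (percentile 40) on at least 5 of 10 arrays entered a two-sided limma test (version 3.58.1, R 4.3.3, variance trend), adjusted by Benjamini-Hochberg over all 7612, with a threshold of 0.05. The code was tested on simulated data. The members and lists were chosen with earlier results of these data known. Named genes were every member probe set, up to 4 called genes of each list with the smallest p, direct partners of members, and the 5 genes nearest to Postn. Other scalings, pseudocounts, filters, a variance without trend, a replicate block and leaving out each array were tried.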

Additional observations from a re-analysis of the deposited data

Results flagged for a closer look

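In 80 groups of 5 arrays, from 40 probe sets named here, 3 had 1 array whose gap to the nearest other exceeded 0.71 of the range of the group, where chance alone flags about 1 in 20. Postn on control replicate 1 had an intensity of 616, with the other control arrays at 281 to 368. Bmp4 on mdx replicate 5 stood at 2130, with the other mdx arrays at 1120 to 1378. H2-Aa on mdx replicate 1 stood at 8887, with the others at 10117 to 10587.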

How the results depend on the processing

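The count of member probe sets called higher, 6, lay between 5 and 7 under all 20 alternatives, with 5 where a probe set had to be above the filter on all arrays and 7 with no filter or scaled to the hybridization controls. Scaling to the hybridization controls raised the probe sets called higher to 3385 (1202 as deposited) and cut those called lower to 139 (1352), so that 96.1% of calls were upward against 47.1%. Under it 11 other matricellular genes, 8 receptors and 7 genes of the TGF-beta axis were called higher, and 0 receptors, 0 matrix partners, 1 gene of the TGF-beta axis and 1 protease or inhibitor lower. Falls of matrix partners, 2 as reported, numbered 1 with quantile normalization, the stricter filter or the replicate block and 0 with no filter, and 0 to 2 over the left-out arrays. Falls of receptors, 1 as reported, numbered 0 with no filter and 0 to 1 over the left-out arrays. Rises of the TGF-beta axis ranged from 1 to 2 over them. Rises of proteases and inhibitors numbered 3 with the stricter filter, and their falls 1 with no filter and 1 to 2 over the left-out arrays. The cause of these shifts was not tested, except that the stricter filter tests fewer genes. The replicate numbers did not pair the arrays, with correlations of deviations between same-numbered arrays of -0.16 to 0.04, and 0 of 5 correlated best with their own number. The replicate block gave 2238 calls in all, against 2554. Of 496 values of 25 named list genes, 0 reversed, 8 lost the call and 4 gained it. At 4 times the pseudocount the log2 change of Postn was 2.62 and under the smallest pseudocount tried it stood at 4.46. Signal near or below the noise level limits Vcan, the dimmer Tgfbi probe set, Tnc, Thbs2 and the control level of Postn.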
